A study of Arabidopsis thaliana with 30 samples.

Results

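The comparison described here set whole seedlings of the sextuple MCU line that were labelled as given antimycin A (AA) against seedlings of the same line labelled as the control (CK), by RNA sequencing. All genes with a mean of at least 1 normalized read over the 6 libraries were taken, which gave 23113 of the 23415 genes in the deposited table and of the 24621 genes in any AA table of the series. The line carries insertion or edited alleles of the 6 MCU genes, mcu1 to mcu6, combined by crossing in the Col background, and the study calls it a knockdown, since transcripts remained. It is 1 line, with 3 libraries a treatment. AA seedlings were 10 days old and received 50 µM antimycin A for 5 h according to the labels, and CK seedlings received the solvent DMSO. Before either treatment, by the study's methods, seedlings were shaken overnight in darkness in liquid medium. Sextuple AA and CK account for 6 of the 30 libraries of the series, which also holds AA and CK of the wild type Col-0 (Col) and of lines that overexpress MCU2, MCU4 or MCU6 (2OX, 4OX and 6OX).

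The treatment heading of these libraries is in conflict within the deposited tables, and every direction given here depends on it. The columns labelled sextuple AA 1, 2 and 3 hold read for read the same values, in 23085 of 23085 shared genes, as the columns labelled sextuple CK 1, 2 and 3 of the table that sets the sextuple line against Col. The columns labelled CK in the AA table matched none of those 3 columns. Only sextuple columns were compared in this way. Whether the headings of Col or of the overexpressing lines are also in conflict with another table was not tested. Directions follow the heading of the AA table throughout, so "higher" means higher in the libraries labelled AA, and the heading of the other table would turn every sign round.

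Antimycin A blocks complex III, the ubiquinol to cytochrome c step of the mitochondrial respiratory chain. Plant mitochondria hold a bypass, in which alternative NAD(P)H dehydrogenases feed ubiquinol and alternative oxidases pass its electrons to oxygen, and nuclear genes of this bypass belong to a mitochondrial retrograde response that NAC transcription factors released from the endoplasmic reticulum carry to the nucleus. The MCU proteins are pores of the inner mitochondrial membrane that let calcium into the matrix.

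The libraries labelled AA held 26420004 to 37929548 reads assigned to genes and those labelled CK 25449605 to 36117462. Values are read counts divided by a size factor of each library, called normalized reads below. Averaged over the 3 libraries of a group, 3 reads equal 2.70 normalized reads in AA and 3.39 in CK. On log2(value + 1) over all genes tested, the libraries of a group correlated at 0.960 or more and libraries of different groups at 0.944 or less. Nuclear ribosomal RNA took 0.0364 to 0.108% of the reads in AA and 0.254 to 0.286% in CK. Reads of the mitochondrial genome took 0.0101 to 0.0278% in AA and 0.0535 to 0.0658% in CK, and those of the plastid genome 0.0207 to 0.0444% in AA and 0.0632 to 0.0904% in CK. Of the mitochondrial genome's 73 genes tested, 32 were lower in AA, with a median log2 fold change of -1.74, and of the plastid genome's 105 genes 37 were lower, with a median of -1.34. Among all genes tested 13.4% were lower. The part of this difference in library makeup in any result below was not tested.

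The AA and CK libraries differed in 26.0% of the genes tested, in both directions and in nearly equal number. A gene was called where limma's test on log2(value + 1) gave an adjusted p under 0.05 and the fold change was over 1.5. Of 23113 genes, 6006 (26.0%) were called, 2915 (12.6%) higher and 3091 (13.4%) lower in AA, and the median log2 fold change of all genes was 0.02. These shares are the background for every list count of AA against CK below. Over 2-fold stood 1887 genes that were higher and 2050 that were lower, and over 8-fold 166 and 189. The AA and CK values did not overlap in 10106 genes (43.7%). Dividing by library totals in place of the authors' size factors moved the median of all genes by 0.29 on the log2 scale, to 0.31, and 71.7% of the calls were then higher in AA, against 48.5% as deposited. Without AA replicate 2 the count was 3883.

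**Figure D1:**
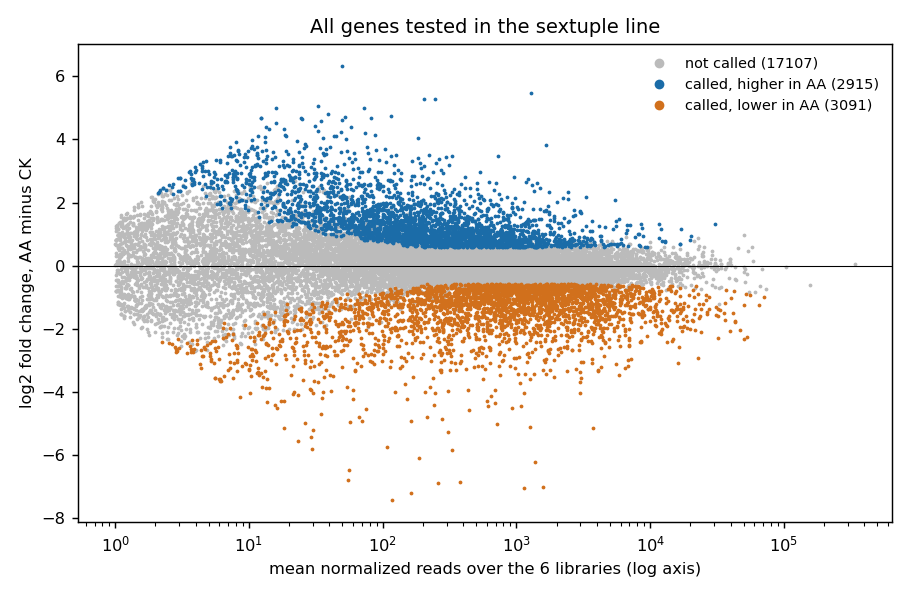
Log2 fold change, AA minus CK, of each gene tested in the sextuple line against its mean normalized reads over the 6 libraries on a log axis, with 2915 genes called higher in AA in blue, 3091 called lower in orange and the others in grey. Calls lie on both sides of 0 at every level above a few reads, and the falls reach further from 0 than the rises among genes with a mean of 50 or more.

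Of the calcium uniporter genes themselves, MCU6 was the one that was called. It had 69.6, 111 and 69.4 normalized reads in the libraries labelled AA, against 454, 479 and 602 in those labelled CK, and the groups stood far apart. Its log2 fold change was -2.63 (standard error 0.24, adjusted p by limma 0.000123). MCU3 had 1634, 1694 and 1415 normalized reads in the libraries labelled AA, against 1212, 1108 and 1254 in those labelled CK, with a log2 fold change of 0.41 (standard error 0.14, adjusted p by limma 0.0579). Its AA libraries were all above its CK libraries, yet it was not called on these size factors, and it was called higher, at a log2 fold change of 0.70, with library totals. MCU1 and MCU2 had log2 fold changes of -0.41 and -0.13 with overlapping groups, as had the gene of an EF-hand calcium-binding protein, AT4G32060, at -0.24. MCU4 was near the detection limit, with 0, 0 and 0 normalized reads in the libraries labelled AA, against 0, 9.72 and 9.84 in those labelled CK. One further MCU gene is not reported here.

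The levels of these genes in the sextuple line and in Col were set side by side on 1 scale over the 12 AA and CK libraries of both genotypes, with no test. MCU1 had 82.5 ± 30.9 in AA and 111 ± 55.1 in CK of the sextuple line, and 199.9 ± 17.9 in AA and 217 ± 10.8 in CK of Col (normalized reads, mean ± SD, n = 3 each). MCU6 had 73.9 ± 20.9 in AA and 453 ± 70.7 in CK of the sextuple line, and 234 ± 57.4 in AA and 845 ± 76.6 in CK of Col. Both were lower in every sextuple library than in every Col library of the same heading. So was MCU4, near the detection limit, with 0, 0 and 0 in AA and 0, 8.58 and 8.73 in CK of the sextuple line. In Col it had 3.79, 2.80 and 0.699 in AA and 37.2, 21.3 and 34.5 in CK. MCU2 had 509 ± 61.8 in AA and 557 ± 72.8 in CK of the sextuple line, and 474 ± 68.6 in AA and 436 ± 105 in CK of Col, and MCU3 had 1404 ± 126 in AA and 1055 ± 69.7 in CK of the sextuple line, and 1154 ± 121 in AA and 1263 ± 161 in CK of Col. Levels of MCU2 overlapped between the genotypes under both headings, and those of MCU3 under the AA heading, while its CK libraries were lower in the sextuple line. Gene totals count reads on both sides of an insertion and do not show whether a transcript is whole.

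Genes of the alternative respiratory pathway were lower in the libraries labelled AA where they were called. Of 11 genes tested, 4 were lower and the other 7 were not called, with a median log2 fold change of -0.53. The share called was 36.4%, against 26.0% over all genes. The groups did not overlap in 6 of the 11, against 43.7% of all genes, and in 2 of these 6 AA was above CK. AOX1A, the main stress-inducible alternative oxidase, is a gene that antimycin A is known to raise in Arabidopsis. It had 9110.2, 6756 and 12253 normalized reads in the libraries labelled AA, against 24449.8, 28572 and 30583 in those labelled CK. Each AA library was below each CK library, and the log2 fold change was -1.61 (standard error 0.25, adjusted p by limma 0.0015). AOX1D, the other alternative oxidase that stress raises, had 610.0, 323 and 849.9 normalized reads in the libraries labelled AA, against 3756, 3993 and 3351 in those labelled CK, and its log2 fold change was -2.74 (standard error 0.30, adjusted p by limma 0.000263). The alternative NAD(P)H dehydrogenase genes NDA2 and NDB2, whose products face the matrix and the intermembrane space, had log2 fold changes of -1.29 and -1.08 and did not overlap between the groups. AOX1A and AOX1D were also called lower in AA in the Col, 2OX, 4OX and 6OX tables, with log2 fold changes of -0.97, -1.83, -1.56 and -1.71 for AOX1A and of -1.96, -4.16, -3.44 and -3.999 for AOX1D. The study itself reports that AA raised AOX1A expression, the opposite of the direction under the Col headings here. The source of this conflict was not tested.

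The wider set of mitochondrial dysfunction genes, the targets by which this retrograde response is usually followed, went the same way. Of 23 genes tested, 14 were lower and 9 were not called, the median was -0.999, and the AA values lay below all CK values in 16, against 21.8% of all genes. CYP81D8, a cytochrome P450, had 7227, 4023 and 9676 normalized reads in the libraries labelled AA, against 29094, 27407 and 26054 in those labelled CK, a log2 fold change of -2.07 (standard error 0.30, adjusted p by limma 0.00104). ABCB4, an auxin transporter, had 16838, 13917 and 29380.1 normalized reads in the libraries labelled AA, against 74348, 73237 and 50500.3 in those labelled CK, a log2 fold change of -1.77 (standard error 0.33, adjusted p by limma 0.0041). In both, the groups did not overlap and the lowest library was AA 2. UGT74E2, a glucosyltransferase that acts on the auxin indole-3-butyric acid, had a log2 fold change of -1.67, and AT2G41730, an uncharacterized gene of this response, one of -1.36, whose call was lost without AA 2. Of the NAC factors of the endoplasmic reticulum, ANAC013 and ANAC016 were lower, at -1.23 and -1.05, while ANAC017, which is known to be regulated by release of its protein from the membrane, had -0.30 and was not called. AA 2 stood below the others of its group across this list, by a median difference of -0.56 on the log2 scale, and between 6 and 17 members were lower over the alternatives computed, with 8 without AA 2 and 6 with limits of 0.01 on the adjusted p and 2 on the fold.

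Members with the mitochondrial dysfunction motif in the 300 bases before the gene start are shown because the motif is the site to which the NAC factors of this response are known to bind. The letters searched were CTTGNNNNNCAAG and CTTGNNNNNCACG on both strands. They occurred in 4 of 11 alternative respiration genes, 6 of 23 mitochondrial dysfunction genes and 3 of 16 small heat shock protein genes, and in 1.26% of the windows of all 22897 genes cut. Of these 13 carriers 6 were lower in AA and 7, ANAC017, NDA1, NDB3 and AOX1B among them, were not called. The 4 windows below were picked from the 6 lower ones, and each runs 5′ to 3′ on the gene's strand with the motif in capitals (TAIR10.1, RefSeq gene starts). NDB2 lies at chr4:2572317-2572386, plus strand, CYP81D8 at chr4:17571844-17571913, minus strand, AT5G51440, a gene of the small heat shock protein class in the mitochondrial dysfunction list, at chr5:20891023-20891092, plus strand, and HSP23.6, whose product is a small heat shock protein of mitochondria, at chr4:12916846-12916915, plus strand.
NDB2: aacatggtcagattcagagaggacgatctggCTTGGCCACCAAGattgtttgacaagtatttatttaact
CYP81D8: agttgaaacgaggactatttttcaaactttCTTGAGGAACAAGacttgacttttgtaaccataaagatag
AT5G51440: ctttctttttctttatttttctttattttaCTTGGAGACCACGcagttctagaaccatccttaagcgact
HSP23.6: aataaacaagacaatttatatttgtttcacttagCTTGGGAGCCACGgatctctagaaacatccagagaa
In NDB2 and CYP81D8 the motif ended in CAAG, and in AT5G51440 and HSP23.6 in CACG. AT5G51440 and HSP23.6 had log2 fold changes of -0.999 and -4.51.

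Structural genes of the respiratory chain gave 1 to 2 calls a list on all 6 libraries. Of 17 genes of complex III and cytochrome c, CYTC-2, one of the cytochrome c genes, was lower, with 1190.3, 959.9 and 1089.7 normalized reads in the libraries labelled AA, against 1399, 2073 and 2781 in those labelled CK and a log2 fold change of -0.90 (standard error 0.23, adjusted p by limma 0.0187). The call was lost with library totals, with no mean-variance trend and without each of CK 2, AA 2 and AA 3. The other 16 were not called, and the list's median was -0.03. Its sign turned under library totals (0.26) and without CK 3. CK 3 was the highest of all 6 libraries in 16 of the 17 genes, by a median of 0.72 on the log2 scale over the others of its group. Of 75 nuclear genes of the respiratory complexes that the study itself listed, 2 were lower, SDH3-2 of complex II at -0.64 and AT5G27760, annotated as a hypoxia-responsive family protein, at -1.17, and the median was -0.05, which turned positive with library totals (0.25) and without CK 3 or AA 3. Without CK 3, 8 of the 75 were higher and 2 lower. Both of these calls were lost without each of AA 1, AA 2 and CK 2 and with library totals. Of 15 mitochondrial import and carrier genes of the study's list 4 were lower and 1, TIM17-3, a paralog of an inner membrane translocase subunit, was higher at 1.19. This was a share of 33.3% called, against 26.0% over all genes. DIC3, a dicarboxylate carrier, and TOC64-V, an outer membrane receptor, were among the lower ones at -1.67 and -1.05. Of this list 2 were lower without any 1 of CK 2, CK 3, AA 1 and AA 2 and with library totals, and 6 without CK 1, and the median of -0.35 became -0.02 without CK 3. The study chose these lists on its own samples.

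The most extreme falls were in small heat shock protein genes, chaperones that bind unfolding proteins in each compartment. Of 16 genes tested, 13 were lower in AA and 1 was higher, and the median log2 fold change was -5.06, against 0.02 over all genes. HSP17.4, of the cytosol, had 17.9, 39.3 and 17.59 normalized reads in the libraries labelled AA, against 2536, 3333 and 3579 in those labelled CK, a log2 fold change of -7.01 (standard error 0.31, adjusted p by limma 7.06e-06). HSP17.6A had 23.2, 18.6 and 9.26 normalized reads in the libraries labelled AA, against 1704, 2469 and 2622 in those labelled CK, a log2 fold change of -7.04 (standard error 0.33, adjusted p by limma 7.06e-06). Both were abundant transcripts in the CK libraries and low but detected in AA. HSP21, of the plastid, had 8.44, 3.58 and 0.926 normalized reads in the libraries labelled AA, against 442, 564 and 534 in those labelled CK, a log2 fold change of -6.87 (standard error 0.52, adjusted p by limma 5.19e-05). HSP22.0, of the endoplasmic reticulum, had 0, 1.43 and 0 normalized reads in the libraries labelled AA, against 204, 275 and 224 in those labelled CK. At 3 reads or fewer in each AA library it was at least 86.8-fold lower against a floor of 3 reads per library. AT4G21870, a protein of the same domain family, was the member that was higher, at 0.76.

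Among the larger chaperones the heat-inducible cytosolic copies were lower. Of 17 genes 6 were lower and 11 were not called, with a median of -0.30. The share called was 35.3%, against 26.0% over all genes. HSP90.1, the heat-inducible cytosolic HSP90, had 317, 536 and 621 normalized reads in the libraries labelled AA, against 5802, 6525 and 4493 in those labelled CK, a log2 fold change of -3.55 (standard error 0.25, adjusted p by limma 4.01e-05). HSP101, a disaggregase, HSP70B and HSP70-4 had log2 fold changes of -3.30, -3.23 and -2.26, all without overlap. The constitutive HSC70-1, HSP90.2 and HSP60 had -0.04, 0.07 and -0.18 and were not called. Among heat shock transcription factors and their partner MBF1C, 11 of 19 were lower and 1 was higher, with a median of -1.01. HSFA2, the heat-induced activator, had 1.06, 17.2 and 27.8 normalized reads in the libraries labelled AA, against 316, 367 and 254 in those labelled CK, a log2 fold change of -4.92 (standard error 0.82, adjusted p by limma 0.00219). MBF1C, a coactivator of thermotolerance, had a log2 fold change of -3.42, HSFB2B one of -1.82 and HSFA4A one of -1.78. The HSFA1 genes, whose products are the constitutive master activators, lay between -0.06 and 0.20 and were not called. HSFC1 was the member that was higher, at a mean of 17.9 normalized reads.

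Windows with the heat shock element, to which heat shock factors bind, are shown for 3 of these genes and for DREB2A of the ERF and DREB list. The pattern searched was GAA, TTC and GAA, or TTC, GAA and TTC, with 2 free bases between each block and the next, on both strands. They occurred in 2 of 16 small heat shock protein genes and 3 of 19 heat shock factor genes, and in 0.511% of all windows. Of these 5 carriers 4 were lower in AA, and HSFA7A was not called. Among 19 ERF and DREB genes 2 held the element, DREB2A and ERF2. The windows shown were picked from genes that were lower, and that of HSFA7B, also lower, is left out. HSP17.4 lies at chr3:16984868-16984987, minus strand, AT1G53540, of the same cytosolic class, at chr1:19980209-19980278, plus strand, HSFA2 at chr2:11135504-11135573, plus strand and DREB2A, a drought and heat transcription factor that HSFA1 proteins are known to activate, at chr5:1602010-1602079, plus strand. Capitals mark the element.
HSP17.4: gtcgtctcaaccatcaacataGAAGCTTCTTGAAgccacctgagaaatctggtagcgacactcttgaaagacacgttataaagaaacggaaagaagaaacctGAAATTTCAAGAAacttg
AT1G53540: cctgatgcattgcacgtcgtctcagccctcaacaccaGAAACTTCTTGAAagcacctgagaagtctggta
HSFA2: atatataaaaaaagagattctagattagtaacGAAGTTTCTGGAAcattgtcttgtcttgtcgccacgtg
DREB2A: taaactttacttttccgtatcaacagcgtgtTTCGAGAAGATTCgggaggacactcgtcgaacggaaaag
HSP17.4 held 2 elements in this stretch and the others 1. AT1G53540 had a log2 fold change of -5.84 and DREB2A one of -4.13.

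**Figure D2:**
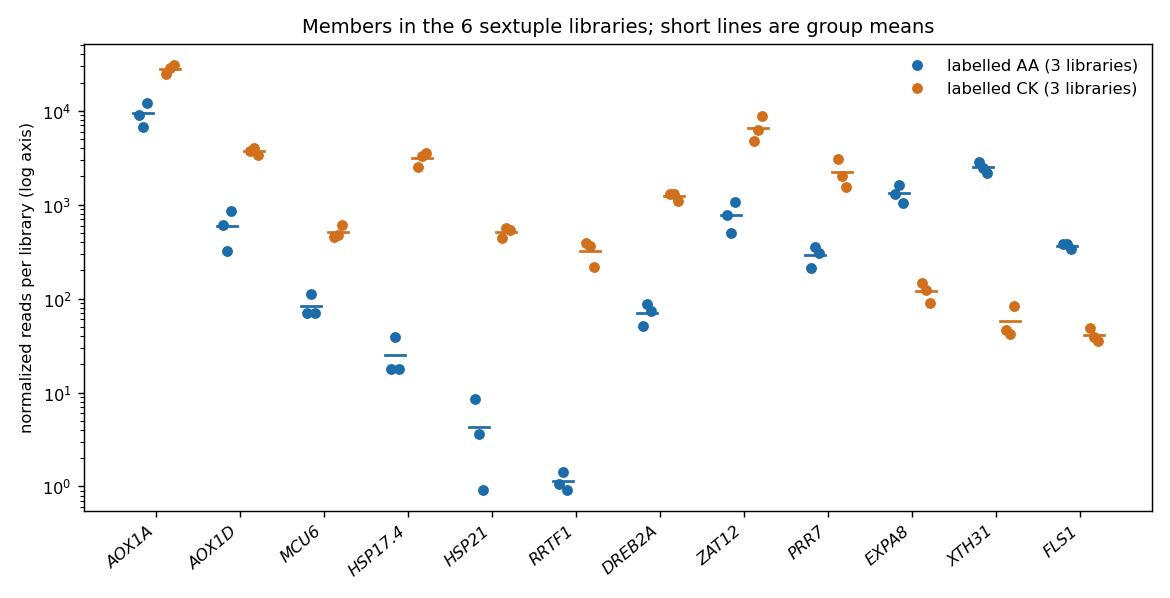
Normalized reads of 12 genes in each of the 6 sextuple libraries on a log axis, AA in blue left of CK in orange, with short lines at the group means (n = 3 each). In the first 9 genes, from AOX1A to PRR7, every AA library sits below every CK library, and in EXPA8, XTH31 and FLS1 above.

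Chaperones of the endoplasmic reticulum did not follow the cytosolic ones. Of 20 genes, 5 were higher and 5 lower, a share of 50% called against 26.0% over all genes, with a median of 0.30. With library totals 10 were higher and 3 lower, with a median of 0.59. Without CK 2 or without AA 1, 3 were lower. Calreticulin CRT1A had 4817, 4923 and 5314 normalized reads in the libraries labelled AA, against 2231, 2491 and 2282 in those labelled CK, a log2 fold change of 1.104 (standard error 0.14, adjusted p by limma 0.000503). BIP3, the stress-induced copy of the lumenal HSP70, had 12.7, 11.4 and 24.1 normalized reads in the libraries labelled AA, against 239, 119.9 and 75.9 in those labelled CK, a log2 fold change of -3.01 (standard error 0.47, adjusted p by limma 0.00154). The calreticulins and BIP3 thus stood on opposite sides of 0. ERDJ3A, a J-domain partner, and IRE1A, a sensor of unfolded proteins, were lower at -1.77 and -1.12.

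In the WRKY, the ERF and DREB and the zinc finger families of stress-responsive transcription factors, more genes were lower than higher. Of 26 WRKY genes 20 were lower and 1, WRKY60, was higher, with a median of -1.36. WRKY63 had 97.1, 101 and 133 normalized reads in the libraries labelled AA, against 859, 1025 and 1101 in those labelled CK, a log2 fold change of -3.17 (standard error 0.19, adjusted p by limma 2.59e-05). WRKY75, a factor of phosphate starvation and leaf senescence, WRKY22, a factor of defence signalling, and WRKY45 had log2 fold changes of -2.69, -2.66 and -1.96. Of 19 ERF and DREB genes 12 were lower and 1, DREB26, was higher, with a median of -1.25. RRTF1, a redox-responsive ERF factor, had 1.06, 1.43 and 0.926 normalized reads in the libraries labelled AA, against 387, 365 and 218 in those labelled CK. No AA library held more than 3 reads of it, and it was at least 119.9-fold lower against a floor of 3 reads per library. DREB2A had 51.7, 86.5 and 73.1 normalized reads in the libraries labelled AA, against 1292, 1307 and 1092 in those labelled CK, a log2 fold change of -4.13 (standard error 0.22, adjusted p by limma 1.30e-05), and ERF6 and RAP2.6 had -2.55 and -1.96.

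Of 10 zinc finger genes of the ZAT and AZF group, repressors that respond to reactive oxygen, 8 were lower and 2 were not called, with a median of -2.01. ZAT12 had 779, 501 and 1071 normalized reads in the libraries labelled AA, against 4741, 6240.1 and 8751 in those labelled CK, a log2 fold change of -3.09 (standard error 0.30, adjusted p by limma 0.000139), and its groups did not overlap. ZAT6, ZAT10 and ZAT7 had log2 fold changes of -2.35, -2.27 and -2.11. W-boxes, the sites of WRKY factors (TTGACC or TTGACT on either strand), stood in 43.7% of the windows of genes that were lower, 28.8% of those that were higher and 32.2% of all.

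Of 19 jasmonate genes 17 were lower and 1, VSP1, was higher, with a median of -1.59. JAZ9, a repressor of jasmonate signalling that the hormone itself raises, had 535, 472 and 469 normalized reads in the libraries labelled AA, against 3592, 2772 and 2921 in those labelled CK, a log2 fold change of -2.64 (standard error 0.15, adjusted p by limma 1.90e-05), and AOC1, of jasmonate synthesis, JAZ1 and JAZ5 had -2.05, -1.99 and -1.97. Of 28 glutathione transferases of the tau class, 15 were lower and 2 higher, with a median of -0.78, and 11 to 16 were lower over the alternatives. GSTU3 had 31.7, 18.6 and 74.1 normalized reads in the libraries labelled AA, against 2780.5, 2879 and 2544 in those labelled CK, a log2 fold change of -6.23 (standard error 0.40, adjusted p by limma 2.66e-05). Its AA libraries lay far below its CK libraries, while GSTU25, GSTU11 and GSTU2 had -3.70, -2.97 and -2.58. Several of these genes lie side by side and are similar in sequence, so that reads may have been shared among them. Of 15 antioxidant genes 1, FSD3, a plastid superoxide dismutase, was higher at 1.51 and 2 were lower, among them CAT1, a catalase, at -0.97. This was a share of 20% called, against 26.0% over all genes. The list's median of -0.14 turned to 0.15 with library totals and was 0.02 without AA 3. Of 23 genes of calcium sensors, pumps and exchangers 11 were lower and 1, CAX1, a calcium exchanger of the vacuole, was higher at 1.32. In this list 52.2% were called, against 26.0% over all genes. CML39 and CML37, calmodulin-like proteins, had -4.91 and -2.19, and ACA13, a calcium pump, -2.35.

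Genes of the low-energy response, which the kinase SnRK1 turns on when sugar runs short, were lower in 18 of 22 cases, higher in 1, TPS5, and had a median of -1.72. DIN9, a mannose-6-phosphate isomerase, had 74.9, 52.9 and 30.6 normalized reads in the libraries labelled AA, against 547, 471 and 472 in those labelled CK, a log2 fold change of -3.30 (standard error 0.31, adjusted p by limma 0.000133). DIN2, a β-glucosidase, had 412, 253 and 705 normalized reads in the libraries labelled AA, against 4428, 2764 and 2942 in those labelled CK, a log2 fold change of -2.98 (standard error 0.34, adjusted p by limma 0.000312). Both were low in every AA library. BCAT2 and MCCA, of branched-chain amino acid breakdown in mitochondria, had -2.46 and -2.39. The SnRK1 kinase genes KIN10 and KIN11 had 0.24 and -0.13 and were not called. CK 1 was the highest of the 6 libraries in 18 of the 22 genes. Light harvesting and Rubisco genes showed no common direction: of 25 genes 4 were lower and 1 higher, a share of 20% against 26.0% over all genes. Their median was -0.03 and turned positive with library totals (0.26), and without CK 3 or AA 3. LHCB2.1, LHCB2.2 and LHCB2.3, subunits of the main antenna, had -2.14, -1.98 and -1.68, and RBCS1B, a small subunit of Rubisco, 1.72. Copies in these families are nearly identical, and their single values are uncertain.

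Circadian clock genes were lower in 9 of 22 cases and higher in 2, a share of 50% called against 26.0% over all genes, with a median of -0.51. PRR7, a repressor of the morning loop, had 212, 355 and 309 normalized reads in the libraries labelled AA, against 3055, 2002 and 1555 in those labelled CK, a log2 fold change of -2.89 (standard error 0.27, adjusted p by limma 0.000127). Its AA values lay well below its CK values, and LNK1, LNK2 and PRR5 were lower too, at -2.94, -1.81 and -2.33. LHY, at a mean of 50.9 normalized reads, and RVE2 were the members that were higher, at 1.31 and 0.78. Windows of the clock genes PRR5 and FKF1, a blue light receptor of flowering time, are shown because they are the called ones of the 4 clock genes that hold the evening element (AAATATCT on either strand) more than once, the site that CCA1 and RVE proteins bind. The other two, ELF4 and LUX, were not called. It occurred in 7.09% of the windows of genes that were lower, 5.18% of those that were higher and 5.69% of all. PRR5 lies at chr5:8358717-8358846, minus strand and FKF1 at chr1:25508339-25508468, plus strand, with the element in capitals.
PRR5: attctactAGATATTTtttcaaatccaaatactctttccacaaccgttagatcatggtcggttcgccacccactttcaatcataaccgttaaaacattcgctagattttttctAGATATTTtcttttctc
FKF1: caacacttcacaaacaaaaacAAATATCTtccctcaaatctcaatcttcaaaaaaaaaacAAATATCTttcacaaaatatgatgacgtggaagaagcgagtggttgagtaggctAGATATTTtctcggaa
PRR5 held 2 elements in this stretch and FKF1 3, and FKF1 had a log2 fold change of -1.24.

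Alpha-expansin genes lay in the other direction. Of 19 alpha-expansins, proteins that loosen the wall as cells grow, 15 were higher in AA and 1, EXPA10, was lower, with a median of 1.73. EXPA8 had 1301, 1622 and 1051 normalized reads in the libraries labelled AA, against 146, 122 and 89.97 in those labelled CK, a log2 fold change of 3.47 (standard error 0.23, adjusted p by limma 3.15e-05). EXPA15 had 688, 514 and 617 normalized reads in the libraries labelled AA, against 44.3, 56.1 and 61.9 in those labelled CK, a log2 fold change of 3.46 (standard error 0.22, adjusted p by limma 2.59e-05). EXPA5 and EXPA11 had 3.44 and 2.63, and in all 4 the groups were apart. Among 30 XTH genes, whose enzymes cut and rejoin xyloglucan, 14 were higher and 8 lower. XTH31 had 2871, 2431 and 2199.8 normalized reads in the libraries labelled AA, against 46.1, 42.1 and 82.9 in those labelled CK, a log2 fold change of 5.49 (standard error 0.26, adjusted p by limma 7.06e-06), and was the largest rise of any gene with a mean of 50 or more. XTH13, XTH6 and XTH26 had 4.75, 3.40 and 2.98, while XTH30, XTH18 and XTH23 were lower at -1.80, -1.96 and -1.62.

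Of 18 auxin genes 4 were higher and 2 lower, a share of 33.3% against 26.0% over all genes, and with library totals 8 were higher. The efflux carrier PIN7 had 1.56, and GH3.3 and GH3.5, which conjugate auxin to amino acids, -1.99 and -2.03. Of 12 flavonoid genes 6 were higher and 1 lower, with a median of 1.27, or 0.84 with the genes at the detection floor set to their bound. The count of higher ones was 3 without AA 2 or without AA 3, 4 without CK 2, without AA 1 and with a replicate block, and 8 without CK 3. FLS1, flavonol synthase, had 382, 382 and 339 normalized reads in the libraries labelled AA, against 48.8, 38.9 and 35.1 in those labelled CK, a log2 fold change of 3.15 (standard error 0.23, adjusted p by limma 4.38e-05). CHS, chalcone synthase, had 557, 647 and 608 normalized reads in the libraries labelled AA, against 192, 128 and 82.9 in those labelled CK, a log2 fold change of 2.24 (standard error 0.28, adjusted p by limma 0.000542). Both enzymes of the pathway were higher in every AA library, and MYB111, a flavonol regulator, had 67.5, 104 and 137 normalized reads in the libraries labelled AA, against 0, 2.16 and 33.7 in those labelled CK, a call that was lost without CK 2 or AA 3. Of 14 cell cycle genes 8 were higher and 6 were not called, with a median of 0.94, and 2 to 10 of them were higher over the alternatives, with 3 without AA 2. CYCB1;2, a mitotic cyclin, had 303, 328 and 375 normalized reads in the libraries labelled AA, against 142, 110.1 and 75.9 in those labelled CK, a log2 fold change of 1.65 (standard error 0.26, adjusted p by limma 0.00154). CYCA1;1, CDKB1;2 and CYCB1;4 had 1.35, 1.15 and 0.99, and the calls of CDKB1;2 and CYCB1;4 were lost without AA 2, that of CDKB1;2 also without AA 1 and that of CYCB1;4 also without AA 3. Of 9 nitrogen genes 2 were higher, NRT2.1, a root nitrate transporter, at 2.13 and ASN2, an asparagine synthetase, at 1.27, and 1 was lower, GLN1;1, a glutamine synthetase, at -0.95. This was a share of 33.3% called, against 26.0% over all genes.

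**Figure D3:**
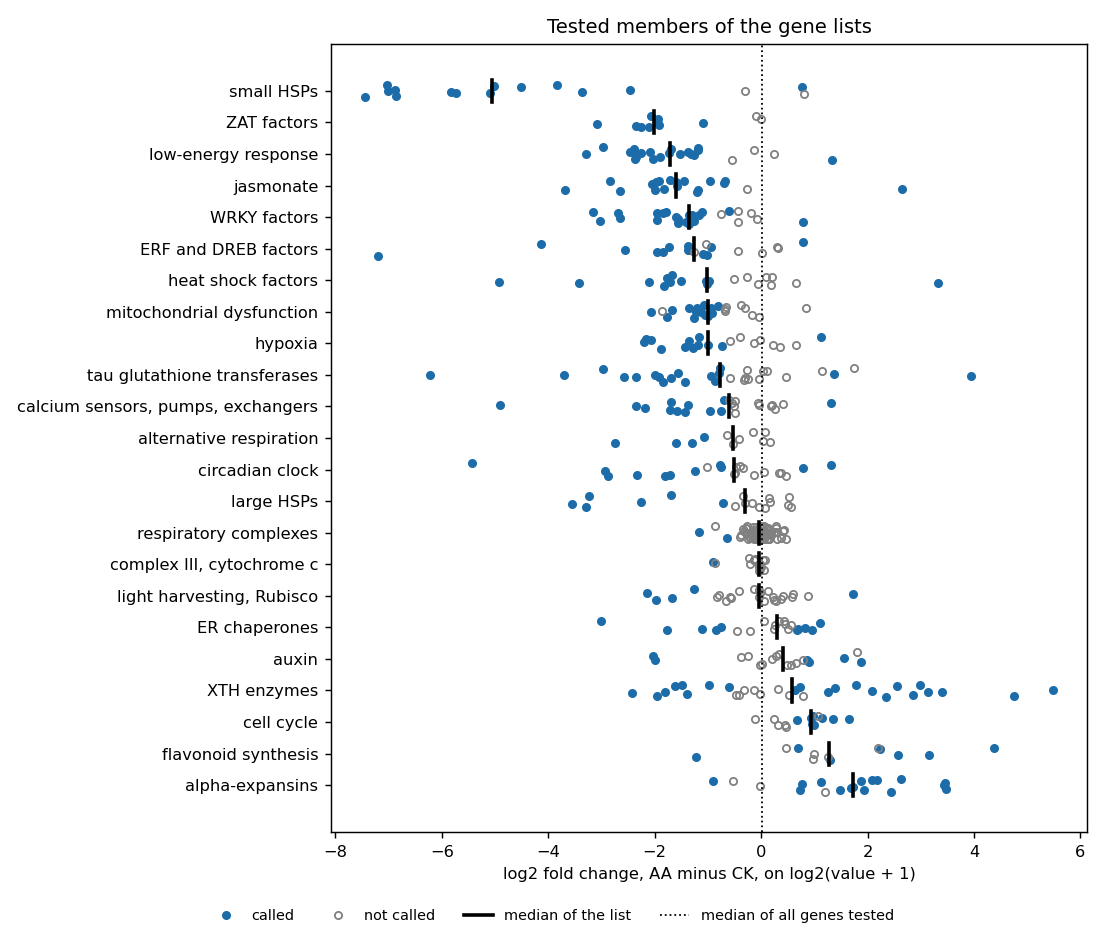
Log2 fold change, AA minus CK, of the tested members of 23 gene lists in the sextuple line, filled where a gene was called and open where it was not, with a bar at each list's median and a dotted line at the median of all genes (0.02). The lists run from small heat shock proteins with a median of -5.06 at the top to alpha-expansins with 1.73 at the bottom, and respiratory complex genes cluster at 0. Vertical scatter within a list only separates the points.

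Of 5 root markers 4 were higher in AA, PYK10, a root β-glucosidase, at 1.31, COBL9 and EXPA7, of root hairs, at 3.62 and 2.09, and NRT2.1, and the fifth, PIN2, had 0.19. The 5 genes summed to 43194 to 46206 normalized reads in AA and to 16212 to 19785 in CK, most of it from PYK10. The 3 leaf markers had log2 fold changes of 0.05 to 0.58 with overlapping groups and were not called, although 2 of them were called higher with library totals, and summed to 282847 to 509746 in AA and 266187 to 580000 in CK. More root cells in a sample and more RNA of these genes per cell cannot be told apart in whole seedlings. The part of this in the cell wall, nitrogen and iron transport genes was not tested.

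Over all genes with a mean of 50 or more and no overlap, the largest rises beside XTH31 included the iron-regulated transporter genes IRT1 and IRT2. IRT1 had 279, 804 and 314 normalized reads in the libraries labelled AA, against 49.7, 22.7 and 0 in those labelled CK, a log2 fold change of 5.28 (standard error 1.20, adjusted p by limma 0.0103). IRT2 had 73.9, 113 and 116 normalized reads in the libraries labelled AA, against 0.905, 3.24 and 5.62 in those labelled CK, a log2 fold change of 4.73 (standard error 0.52, adjusted p by limma 0.000278). IRT1 varied widely within both groups, and IRT2 less so. The other rises were in XTH13, MYB27 and MYB111, the extensin gene EXT11, the annotated galactose mutarotase-like gene AT3G01260 and the lipid-transfer family neighbours AT4G12520 and AT4G12510, whose similar sequences leave their split uncertain. The largest falls were 5 small heat shock protein genes, RRTF1, GSTU3, AT1G71000, a J-domain gene, AT4G28140, an ERF-type factor, and AT5G43570, a protease inhibitor. AT1G71000 had 0, 0 and 0 normalized reads in the libraries labelled AA, against 104, 117 and 107 in those labelled CK, at least 40.5-fold lower, and AT4G28140 had 0, 0.715 and 0 normalized reads in the libraries labelled AA, against 152, 64.8 and 121 in those labelled CK, at least 41.7-fold lower. All 10 falls were also called lower in AA in each of the other 4 genotypes. Of the rises, IRT1 was called higher in 2 of these genotypes, and not in Col or 6OX. MYB27 was called higher in 3, and not in 4OX. The rest of the 10 rises were called higher in all 4.

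How far the sextuple line's response was shared was read from the AA tables of the other genotypes, which hold no library in common. Col had 4155 of 22774 genes called (18.2%), 2OX 5716 (25.1%), 4OX 5988 (25.7%) and 6OX 6055 (26.3%). Of the genes called in the sextuple line and measured in both, 49.1% were called in the same direction in Col, 64.4% in 2OX, 69.1% in 4OX and 69.8% in 6OX, which were 70.9%, 67.5%, 69.3% and 69.2% of those genotypes' own calls. One library of 2OX, AA 1, was shallow at 2558914 reads. Calls in opposite directions numbered 15 with Col, 19 with 2OX, 6 with 4OX and 9 with 6OX. Of 22100 genes tested in every genotype, 2038 were called in all 5 in 1 direction, 941 higher and 1097 lower, and 676 of the sextuple line's 5966 calls were made in no other genotype. A call missing elsewhere is not a tested difference.

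**Figure D4:**
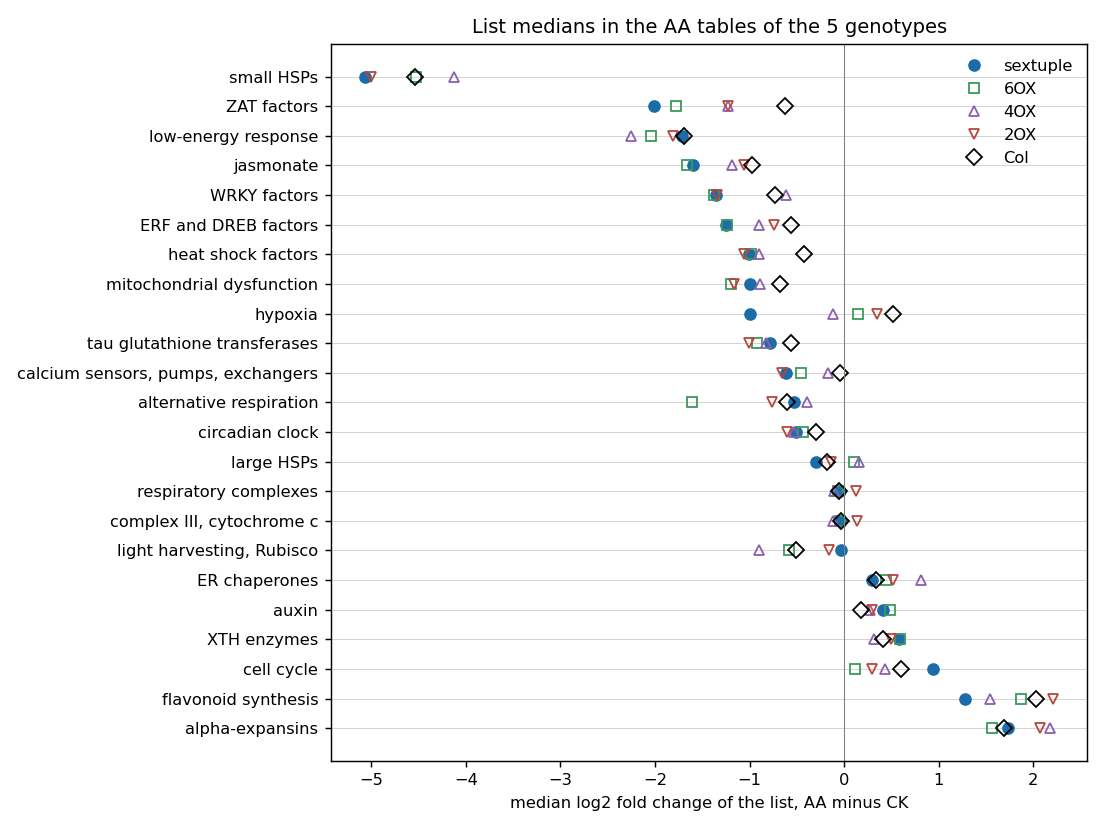
Median log2 fold change, AA minus CK, of 23 gene lists in the AA tables of the 5 genotypes, with the sextuple line as filled circles and 6OX, 4OX, 2OX and Col as open symbols. Small heat shock proteins are the lowest list in each genotype, and the hypoxia list is at -0.999 in the sextuple line and at -0.12 to 0.51 in the other 4.

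The difference between the sextuple line's response and that of Col was tested directly, on the reads of 12 libraries. Of 22716 genes 185 (0.814%) had a response that differed at a limma adjusted p under 0.05, 51 with a higher and 134 with a lower value in the sextuple line. The count was 0 with a replicate block and 0 with no mean-variance trend, and it also rested on single libraries: it was 0 without sextuple AA 2, sextuple CK 2, Col AA 1 or Col CK 1, 10 without Col AA 2, 17 without sextuple AA 1, 85 without Col CK 2, 119 without Col CK 3, 346 without sextuple CK 1, 555 without Col AA 3 and 807 without sextuple CK 3. Col CK libraries were shallower, at 11842565 to 21485355 reads with 1.47 to 6.24% nuclear ribosomal RNA, against 32420268 to 34557499 reads and 0.0531 to 0.0678% in Col AA, and with nuclear genes alone 115 genes passed. The smallest adjusted p, 0.0316, was shared by 60 genes, and the 5 of them with the smallest unadjusted p and a mean of 50 or more were RBCS1B, JRG21, a jasmonate-regulated gene, AT1G33055, an uncharacterized gene, 4CL5, a 4-coumarate:CoA ligase of phenylpropanoid synthesis, and LBD41, a hypoxia-induced regulator. RBCS1B had a mean of 2359.9 in AA and 728 in CK of the sextuple line, and of 1926 in AA and 2423 in CK of Col, and its log2 fold changes differed by 2.07 (standard error 0.28, adjusted p by limma 0.0316). Its call in AA against CK was made in the sextuple line and not in Col, and its near-identical copies leave its own value uncertain. JRG21 had a mean of 15.8 in AA and 473 in CK of the sextuple line, and of 75.5 in AA and 268 in CK of Col. JRG21, AT1G33055, 4CL5 and LBD41 differed by -2.996 (standard error 0.41, adjusted p by limma 0.0316), -2.06 (standard error 0.29, adjusted p by limma 0.0316), -1.56 (standard error 0.22, adjusted p by limma 0.0316) and -2.23 (standard error 0.32, adjusted p by limma 0.0316).

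Hypoxia genes, the core set that plants turn on for fermentation when oxygen is short, held several of the genes whose responses differed between the genotypes. In the sextuple line 11 of 19 were lower in AA and 1, HRE1, was higher, with a median of -0.999. In Col 7 were higher and the median was 0.51. ADH1, alcohol dehydrogenase, had 3747, 6303 and 5121 in AA, against 16115, 22915 and 16025 in CK in the sextuple line on the joint scale, and 13748, 36318 and 6293 in AA, against 5234, 4064 and 7285 in CK in Col. In the sextuple line the groups did not overlap, and in Col they did, with AA 2 the highest of its group. The log2 fold changes differed by -3.32 (standard error 0.64, adjusted p by limma 0.0389), with an adjusted p of 0.00353 to 0.126 over the alternatives.

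PDC1, pyruvate decarboxylase, had 2927, 4846 and 4484 in AA, against 16368, 22929 and 12452 in CK in the sextuple line, and 10029, 21760.1 and 5329 in AA, against 6271, 4999.6 and 8932 in CK in Col. SUS4, a sucrose synthase, had 183, 278 and 303 in AA, against 1366, 1520.2 and 660.1 in CK in the sextuple line, and 1403, 3521 and 514 in AA, against 235, 206 and 306 in CK in Col. SUS4 thus went opposite ways under the same headings without overlap in either genotype. The log2 fold changes of PDC1 and SUS4 differed by -2.75 (standard error 0.57, adjusted p by limma 0.0462) and -4.62 (standard error 0.72, adjusted p by limma 0.0316). LBD41, PCO1, PCO2, HRA1 and ACO1 made up the rest of the 8 members whose difference passed, and the difference was below 0 in all 19, with a median of -1.69. Of all genes 0.814% passed, and their median difference was -0.05 in the fit with no mean-variance trend. Over the alternatives 0 to 15 hypoxia members passed and the median of the list lay between -1.43 and -1.97, with 17 to 19 members below 0. The constitutively made oxygen-labile factors RAP2.2, RAP2.3 and RAP2.12 differed by -0.05, -0.03 and -0.28.

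**Figure D5:**
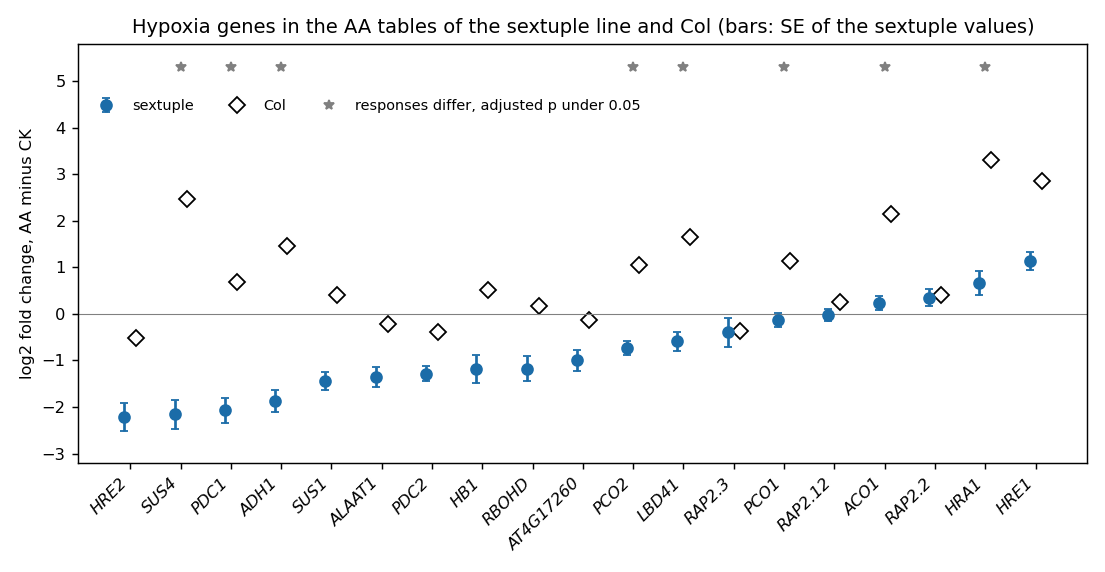
Log2 fold change, AA minus CK, of 19 hypoxia genes in the AA tables of the sextuple line (filled circles, bars are standard errors) and Col (open diamonds, no error shown), ordered by the sextuple value. Stars mark the 8 genes whose responses differed at an adjusted p under 0.05, and all but HRA1, HRE1, ACO1 and RAP2.2 lie below 0 in the sextuple line.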

How the data were processed

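Whole-seedling RNA libraries were sequenced by the authors. Their submitters' processing notes name Bowtie 0.12.2 and TAIR10, and the counting tool, its strand setting and the size factor method were not given in the sources used here. The study's methods name an RPKM tool, which these values did not come from, and a shorter AA time than the labels' 5 h. The deposited tables hold signal values, gene read counts that the authors divided by a size factor of each library. Whole reads were recovered for 100% of 773034 values within 0.01. The authors' mean, fold change, error, statistic and p columns were not used. Of 23415 gene IDs, 23192 matched RefSeq.

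Genes with a mean of at least 1 were tested by limma 3.58.1 (R 4.3.3) with a mean-variance trend on log2(value + 1), two-sided, 3 against 3, with Benjamini-Hochberg adjustment over all genes, and a call needed both an adjusted p below 0.05 and more than a 1.5-fold change. Fold changes on this scale understate those of low genes. The difference from Col was an interaction term on log2 of recovered reads over 12 libraries with median-of-ratios factors. Alternatives used edgeR 4.0.16 and DESeq2 1.42.0 on recovered reads, where edgeR called 5903 genes. On simulated reads for 22845 genes, of which 200 were changed, the limma step recovered 41% of genes changed 1 log2 unit and 93% of those changed 2. In this simulation 6 unchanged genes were called. Far more genes, 6006, were called in the data, so these shares need not hold there. The study's methods name 3 biological replicates a treatment. No source says that these were separate cultures, so p-values measure the spread between these libraries. Members and lists were chosen with earlier results of these data known. Named were the MCU genes, AOX1A, AOX1D, in each list up to 4 called genes of largest change whose groups were apart and whose mean reached 50, the 10 largest rises and falls by the same rule, and the 5 genes with the smallest interaction p, ties in the adjusted p being broken by the unadjusted p. Other genes named were chosen after their values were seen. Promoter windows of 300 bases before RefSeq gene starts were cut from TAIR10.1 for 22897 of 23113 genes and may reach into a neighbouring gene. Antisense and overlapping genes cannot be told apart without strand.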

Additional observations from a re-analysis of the deposited data

Results flagged for a closer look

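Responses to the treatment that differed between the sextuple line and Col were found for 185 genes by the interaction test, and each value below is the log2 fold change of the sextuple line minus that of Col. For the 5 genes with the smallest p it was 2.07 for RBCS1B, -2.996 for JRG21, -2.06 for AT1G33055, -1.56 for 4CL5 and -2.23 for LBD41. Among the other genes named, it was -4.62 for SUS4, -2.75 for PDC1, -3.32 for ADH1, -2.58 for NRT2.1 and -1.55 for EXPA7. All of these kept their sign in the 16 alternatives computed, and passed the adjusted threshold in 4 (PDC1) to 10 (RBCS1B, JRG21 and AT1G33055) of them. EXPA7 and NRT2.1 were higher in AA in both genotypes, by less in the sextuple line. RBCS1B shares near-identical copies with its family, so its own value is uncertain. If the heading of either genotype's libraries were turned round, these differences would not hold as given.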

How the results depend on the processing

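For AA against CK in the sextuple line, the 6006 calls became 2830 with limits of 0.01 on the adjusted p and 2 on the fold, where 42.4% were higher in AA, and 3883 to 7250 with 1 library left out, the lowest without AA 2 and the highest without CK 3. All other settings stayed within 1.5 times of the main count, from 4715 to 7279. Same-numbered AA and CK libraries did not deviate together (correlations of deviations -0.13, -0.05 and -0.15), so the numbers were not taken as pairs. A replicate block gave 4715 calls. Scaling by library totals or nuclear totals gave 71.7% and 71.5% of calls higher, against 48.5%.

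For the difference between the sextuple line and Col, the 185 genes became 273 with edgeR, 115 with nuclear genes alone, 0 with no mean-variance trend and 0 with a replicate block, and 0 to 807 with 1 library left out. At an unadjusted p under 0.05 stood 3519 genes. This count depends on the library set and the variance model.

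Of 115 genes followed, 110 were called, none of the 2299 gene and setting pairs changed sign after a call, 2247 kept their call status, 47 lost a call, in 12 genes, and 5 gained one. Most of the genes followed were picked for large changes without overlap in these same libraries. Kept signs and calls therefore follow in part from that choice. Depth limits genes under about 3 reads a library. With 3 libraries a group, 2-fold changes may be left uncalled, at a share that the simulation, with 200 genes changed, does not give.

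With library totals some list counts moved by more than 1.5 times: genes higher in AA went to 5 of 25 for light harvesting and Rubisco, 4 of 9 for nitrogen, 3 of 17 for larger chaperones, 4 of 22 for clock and 3 of 19 for hypoxia genes.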
